A study of Rattus norvegicus with 23 samples.

Results

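The mRNAs of the cytoplasmic ribosomal proteins were followed in rat liver after 4 hepatotoxicants. The members were the genes with an array probe set annotated to that gene alone and a symbol made of Rpl or Rps, a number and at most 1 further letter. Of the 14217 genes with a probe set of their own, 42 were members, 29 named for the large and 13 for the small ribosomal subunit. They were measured by 46 probe sets, and where a gene had several, its brightest one across the 23 samples stood for it. The rule used symbols, and the mean level where a gene had several probe sets.

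Male Sprague Dawley rats of 6 to 8 weeks were dosed daily by oral gavage for 5 days, were fasted overnight, and were killed on the day after the last dose. Each sample was the left lateral liver lobe of 1 rat, on 1 Affymetrix whole-genome array. The bile duct toxicant alpha-naphthyl isothiocyanate (ANIT, 100 mg/kg, 3 rats) had its own vehicle group of corn oil at 5 ml/kg (3 rats). Methylenedianiline (MDA, 100 mg/kg, 3 rats), which also injures bile ducts, was compared with 35% ethanol at 2 ml/kg (3 rats). The analgesic acetaminophen (APAP, 1000 mg/kg, 3 rats) was compared with corn oil at 2 ml/kg (3 rats). The anti-inflammatory drug diclofenac (DCLF, 10 mg/kg, 3 rats) was compared with water at 10 ml/kg (2 rats). APAP, DCLF and their vehicles belonged to 1 study, and ANIT and MDA each to another. Every compound was compared only with the vehicle rats of its own study, so no comparison shared its controls with another. Whole liver was measured, so a larger number of cells of one type and more RNA per cell cannot be told apart.

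A cytoplasmic ribosome is built from a small subunit, which reads the mRNA, and a large subunit, which joins the amino acids, and each subunit holds ribosomal RNA and one copy of most of its proteins. Ribosomal protein mRNAs are among the most abundant in any cell, and are known to begin with a run of pyrimidines that ties their translation to the TOR kinase. Hepatocytes, which secrete most plasma proteins, carry large numbers of ribosomes, and the liver is a classic tissue for the study of ribosome production during regeneration.

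The stretch around the annotated start, where such a run would lie, is given here for the members with well-known roles and for the 3 with the largest changes in ANIT livers. RefSeq promoter windows on the rat GRCr8 build matched 37 of the 42 members by symbol. Each line runs from 10 bases before to 20 bases after the annotated start, 5′ to 3′ on the gene's strand, with 4 pyrimidine motifs in capitals. The first motif is CTTTC, the second differs from it in its last base and reads CTTTT, another holds CTTCC, and the last is CTCTT. These motifs can overlap one another.
Rpl3 (chr7:113507971-113508000, minus strand): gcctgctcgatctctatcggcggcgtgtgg
Rpl12 (chr3:36661930-36661959, plus strand): aacatccgtCTTTTcggCTTTCggttcgga
Rps24 (chr16:96507-96536, plus strand): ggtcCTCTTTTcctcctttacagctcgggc
Rpl19 (chr10:83519054-83519083, plus strand): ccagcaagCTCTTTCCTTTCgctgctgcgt
Rpl22 (chr5:168117951-168117980, plus strand): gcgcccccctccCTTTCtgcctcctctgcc
Rpl5 (chr14:1995206-1995235, minus strand): CTTTCccacgtcgcttgcgtcctggaggtg
Rpl13a (chr1:104748894-104748923, minus strand): tcCTTTCctaggcggctgccgaagatggcg
Rpl11 (chr5:153560783-153560812, minus strand): cttgaagcttgtttggtgctggggagcatc
Rps6 (chr5:106420521-106420550, minus strand): ctcctaggcggtcggctgtgtcaagatgaa
At least 1 of the 4 motifs lay in the 30-base window of 24 of the 37 members (64.9%), beside 13.9% of all 33469 promoters of the table. The other 13 held none, among them Rpl3, which changed most, Rpl11 and Rps6. The annotated starts were not checked against mapped cap sites, so for these genes the letters are missing from this window only. Among the members that passed the test in ANIT or MDA livers, 12 of 18 held a motif, and among those that passed in neither, 12 of 19. In the whole 300-base window on both strands, CCGGAAG, the core of sites for ETS factors, was found in 21.6% of the members' promoters and in 8.75% of all promoters, and ATGGCGG, the core of sites for YY1, in 32.4% and 4.8%. The window reached 50 bases past the annotated start, so a match can also lie in transcribed sequence. These matches describe the sequence and were not linked to binding.

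Values are RMA levels, the summarized and normalized probe intensities on a log2 scale, on which a change of 1 is a 2-fold difference. The members' mean levels over the 23 samples ran from 5.81 for Rpl3l, a paralog of Rpl3 known from skeletal and heart muscle, to 14.12 for Rps29, with a median of 13.11. Levels of different probe sets cannot be compared as amounts of mRNA, but 35 of the 42 members were among the brightest 5% of genes. The other dim members were Rpl30 at 6.85, Rpl28 at 6.96 and Rps13 at 8.95, and their changes rest on weak signals. Sample medians over all probe sets lay between 8.95 and 9.02. The 5 ml/kg corn oil replicate 2 and the ANIT replicates 1 and 2 held no value over 15 (highest values 14.57 to 14.97), while the other 20 samples held 29 to 38 probe sets over 15. The highest member value in those 3 samples was 14.20. Albumin was the brightest gene, at a mean of 15.80.

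The median level of the 42 members separated the ANIT and the MDA livers from those of their vehicle rats. It was 13.00, 12.92 and 12.98 in the 3 rats given corn oil at 5 ml/kg and 13.39, 13.31 and 13.33 in the 3 ANIT rats. It was 12.91, 12.99 and 12.82 with 35% ethanol and 13.22, 13.27 and 13.15 with MDA. It was 13.01, 12.95 and 13.13 with corn oil at 2 ml/kg and 13.28, 13.19 and 13.13 with APAP. The ANIT and MDA rats all lay above every vehicle rat of any study, while the lowest APAP rat and the highest corn oil rat of its study differed only in the third decimal. The medians were 12.90 and 12.96 with water and 12.88, 12.97 and 12.86 with DCLF, and these groups overlapped.

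**Figure D1:**
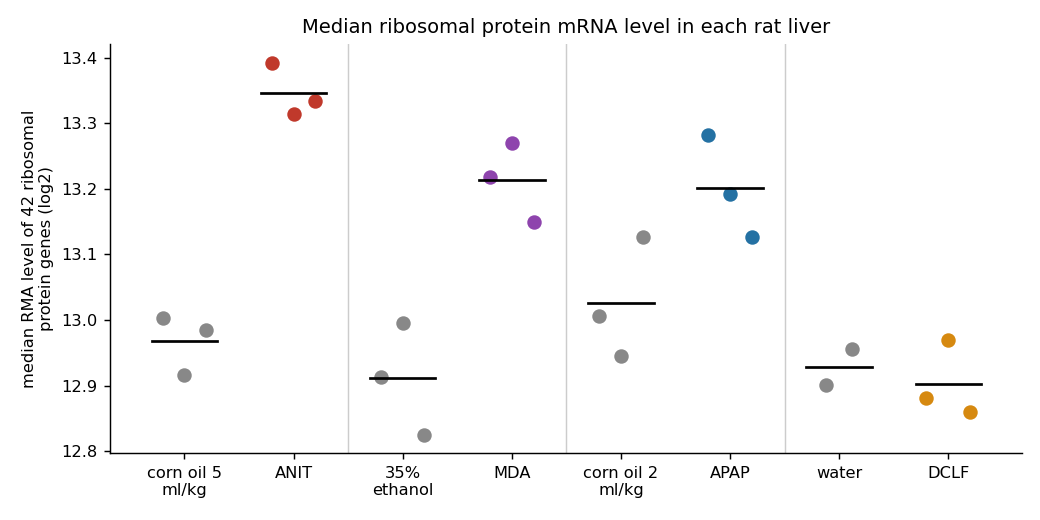
Median RMA level (log2) of the 42 ribosomal protein genes in each of the 23 livers, with vehicle rats in grey, treated rats in colour, black lines at group means and vertical lines between the comparisons. The 3 ANIT rats lie at 13.31 to 13.39 and the 3 MDA rats at 13.15 to 13.27, above their vehicles, and the DCLF rats overlap the water rats.

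Ribosomal protein mRNAs were higher in ANIT livers by a small amount that most members shared. The median log2 change over the members was 0.28, a 1.22-fold increase, beside -0.02 over all 14217 genes, and 40 of the 42 lay above 0. By limma with Benjamini-Hochberg adjustment over 31042 probe sets, 14 members passed an adjusted p of 0.05 and were higher, and none was lower. The corresponding shares of all genes were 6.01% higher and 6.75% lower, against 33.3% of the members higher. The stricter call, which also asked for a fold change over 1.5, was met by Rpl3 alone, when 3.84% of all genes were called higher. In 35 members every ANIT rat lay above every vehicle rat, as in 14.1% of all genes, and in none did every ANIT rat lie below, as in 18.8% of all genes. The p-values and standard errors (SE) rest on the spread between rats of these groups, which limma moderates across all probe sets.

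Rpl3, which reaches towards the catalytic centre of the large subunit, had levels of 12.93, 12.79 and 12.87 with corn oil and 13.66, 13.47 and 13.68 with ANIT. All 3 ANIT rats were above all 3 vehicle rats. The log2 change was 0.74 ± 0.0879 (SE, n = 3 and 3; limma adjusted p = 0.00273). Rpl12, a protein at the base of the stalk where elongation factors bind, had 12.96, 12.77 and 12.87 with corn oil and 13.47, 13.35 and 13.44 with ANIT. These groups did not overlap either, and the log2 change was 0.55 ± 0.0820 (limma adjusted p = 0.00636). Rps24, a small subunit protein whose human gene is mutated in some families with Diamond-Blackfan anaemia, had 12.96, 12.88 and 12.98 with corn oil and 13.52, 13.35 and 13.51 with ANIT. Its log2 change was 0.52 ± 0.0810 (limma adjusted p = 0.00783), again with no overlap.

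The other large subunit members that passed in ANIT livers had log2 changes of 0.29 to 0.48. They included Rpl23a and Rpl39, which line the exit of the peptide tunnel, at 0.48 and 0.38, Rpl41, the smallest ribosomal protein, at 0.45, Rpl19 at 0.37, Rpl22 at 0.35, Rpl27a at 0.33, Rpl11 at 0.31 and Rpl34 at 0.29. Of the small subunit, Rps16 rose by 0.48, Rps6, the classic substrate of S6 kinase, by 0.38, and Rps9 by 0.37. Rpl5 and Rpl11 are known to hold Mdm2, the ubiquitin ligase of p53, when ribosome assembly fails. Rpl11 passed (adjusted p = 0.0468 by limma) and Rpl5, with a log2 change of 0.24, did not (adjusted p = 0.114). The 6 lowest members were Rpl14 at 0.15, Rpl6 at 0.10, Rpl18 at 0.06, Rps13 at 0.03, and, below 0, Rpl3l at -0.06 and Rpl28 at -0.20. The large subunit members had a median change of 0.28 and the small subunit members of 0.30.

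MDA gave much the same picture in rats of another study. The median log2 change over the members was 0.25, a 1.19-fold increase, beside 0.002 over all genes, and again 40 of 42 lay above 0. By limma, 12 members passed and were higher and none was lower, which is 28.6% of the members against 8.29% of all genes higher and 8.55% lower. Rpl3 was the single member called with the fold change as well, beside 4.9% of all genes called higher. In 31 members the MDA rats lay entirely above the ethanol rats, as in 17.1% of all genes, and in none entirely below, as in 18.4%.

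Rpl3 had levels of 12.88, 13.00 and 12.81 with 35% ethanol and 13.49, 13.52 and 13.44 with MDA. The groups did not overlap, and the log2 change of 0.59 ± 0.0872 (SE, n = 3 and 3; limma adjusted p = 0.00417) lay just past the fold limit of 0.585, and no member was called after median centring. Rpl12 had 12.72, 12.83 and 12.58 with ethanol and 13.23, 13.26 and 13.14 with MDA. Its log2 change was 0.50 ± 0.0945 (limma adjusted p = 0.0113), without overlap. Rpl19 had 13.36, 13.52 and 13.34 with ethanol and 13.87, 13.90 and 13.80 with MDA, so that every MDA rat was higher. Its log2 change was 0.45 ± 0.0878 (limma adjusted p = 0.0133). Rps24 and Rps6 rose by 0.41 each, Rps3a by 0.40, Rpl22 by 0.39, Rpl7a by 0.37, Rps15a by 0.35, Rpl6 and Rps23 by 0.33 each and Rpl34 by 0.29. Rpl5 and Rpl11 had log2 changes of 0.30 and 0.21 and neither passed (limma adjusted p = 0.0668 and 0.179). Rpl13a, known for its work outside the ribosome in the control of inflammatory mRNAs, had log2 changes of 0.12 with MDA and 0.18 with ANIT and passed in neither. The lowest MDA members were Rpl28 at -0.16, Rpl3l at -0.01, Rpl18 at 0.0001, Rps13 at 0.01, Rps3 at 0.05 and Rps27l at 0.07. Rps27l is a paralog of Rps27 known as a p53 target.

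**Figure D2:**
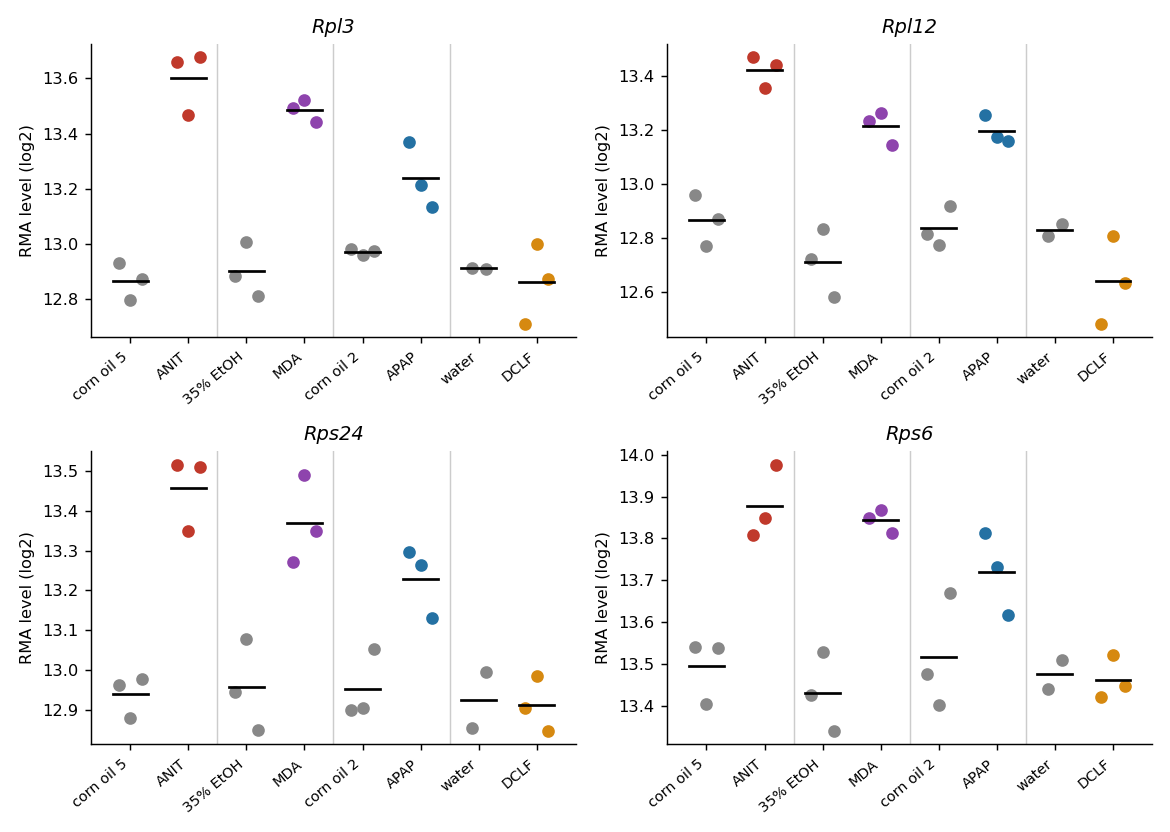
RMA level (log2) of Rpl3, Rpl12, Rps24 and Rps6 in each liver, with vehicle rats in grey, treated rats in colour and black lines at group means; axes do not start at 0 and differ between panels. In all 4 genes the ANIT and MDA rats lie entirely above their vehicle rats. The DCLF rats overlap the water rats, for Rpl12 only in that the highest DCLF rat equals the lowest water rat.

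The numbers of members past the threshold fell whenever a rat was left out, whereas the size of the shift moved little. A smaller group lowers the power for every gene, and the shares of all genes in these fits are not given here. The drop therefore cannot be laid to particular rats. Leaving out corn oil replicate 1, 2 or 3 left 4 members each past the adjusted p in the ANIT comparison, and leaving out ANIT replicate 1, 2 or 3 left 8, 9 or 13, with medians between 0.24 and 0.30. In the MDA comparison, leaving out ethanol replicate 1, 2 or 3 left 5, 8 or 3 members, and leaving out MDA replicate 1, 2 or 3 left 7, 1 or 7, with medians between 0.22 and 0.30. Without the 3 samples that held no value over 15, 1 ANIT rat stood against 2 vehicle rats. The median log2 change was then 0.25, and the lone ANIT rat gave no spread of its own for a test.

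The responses to ANIT and MDA had members in common, and the difference between the compounds passed for none. Of the members, 7 passed with both compounds (Rpl3, Rpl12, Rps24, Rpl19, Rps6, Rpl22 and Rpl34), 7 with ANIT alone, 5 with MDA alone and 23 with neither. The shared members were 50% of the 14 that passed with ANIT and 58.3% of the 12 that passed with MDA. Over all genes, 397 passed higher with both, 46.4% of those with ANIT and 33.7% of those with MDA. As a description across members, which are not independent, the changes of both compounds had a Pearson correlation of 0.773 and a Spearman correlation of 0.637 (n = 42). The difference of the effects was tested with an interaction term in limma over both studies. Its median over the members was 0.02, with a range of -0.23 (Rpl6) to 0.26 (Rpl41). No member passed in either direction, against 0.753% of all genes higher and 1.01% lower, and the smallest adjusted p was 0.501. At an unadjusted p under 0.05 there were also 0 members, against 6.85% of all genes higher and 7.47% lower. Passing with 1 compound alone was therefore not shown to be a difference between the compounds for any member. For Rpl3 the difference was 0.15 ± 0.119 (SE; limma adjusted p = 0.751).

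**Figure D3:**
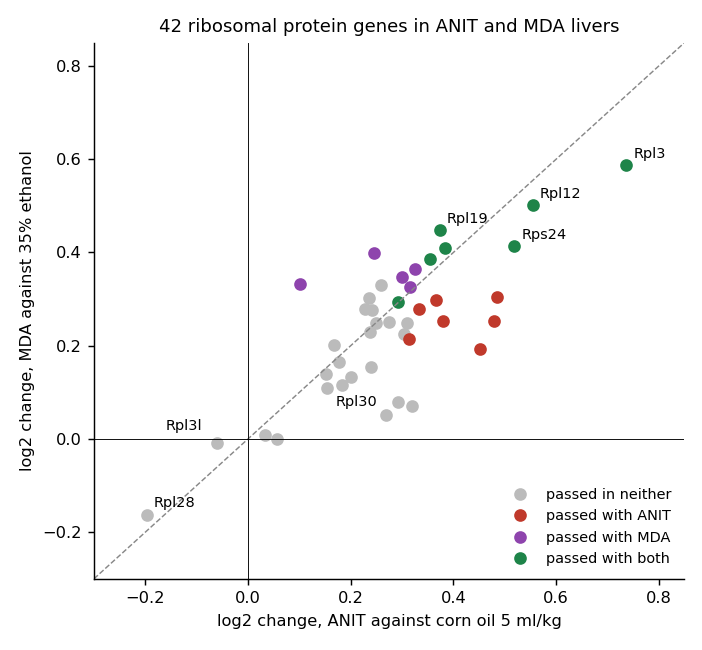
Log2 change of each of the 42 members with MDA (vertical axis) against that with ANIT (horizontal axis), with colours for the comparisons in which the member passed an adjusted p of 0.05 and a dashed line of equal change. Rpl3 lies at 0.74 and 0.59, and 40 members lie above 0 on each axis.

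APAP livers showed a smaller shift that did not pass for any single member. The median log2 change was 0.13, a 1.10-fold increase, beside 0.02 over all genes, and 41 of 42 members lay above 0. By limma, no member passed in either direction, when 0.253% of all genes passed higher and 0.0914% lower and 0.239% were called higher with the fold change. At an unadjusted p under 0.05, 9 members were higher, as were 6.8% of all genes, and none was lower, as were 4.84%. In 12 members the APAP rats lay entirely above the vehicle rats, as in 10.4% of all genes, and in none entirely below, as in 7.09%. Rpl12 had levels of 12.81, 12.77 and 12.92 with corn oil and 13.26, 13.17 and 13.16 with APAP. These did not overlap, and the log2 change of 0.36 ± 0.0737 (SE, n = 3 and 3) did not pass (limma adjusted p = 0.146). Rps24 and Rpl3 followed at 0.28 and 0.27, then Rps13 at 0.25, Rpl5 and Rpl4 at 0.21, and the lowest was Rps27l at -0.06. Rpl3, Rpl12 and Rps24 were thus the members with the 3 highest log2 changes in both the ANIT and the APAP livers. Across all members, which are not independent, the changes with ANIT and with APAP had a Pearson correlation of 0.386 and a Spearman correlation of 0.226 (n = 42).

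DCLF livers showed no such shift. The median log2 change over the members was -0.07, beside -0.03 over all genes, and 36 of 42 members lay below 0. By limma no member passed and none had an unadjusted p under 0.05, which 3.26% of all genes had with a higher and 8.59% with a lower level. Among all genes 0% passed higher, 0% passed lower and 0% were called with the fold change in either direction. The DCLF rats lay entirely below the water rats in 13 members, as in 20.8% of all genes, and entirely above in 1, Rps13, as in 10% of all genes. Rpl12, the member highest with APAP, had 12.81 and 12.85 with water and 12.48, 12.81 and 12.63 with DCLF, a log2 change of -0.19 ± 0.109 (SE, n = 3 and 2; limma adjusted p = 0.508). Its groups overlapped. The lowest and highest members were Rpl30 at -0.24 and Rps13 at 0.16, both measured by dim probe sets. The sign of the DCLF median depended on the scaling, being 0.05 after cyclic loess normalization.

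The difference between the APAP and DCLF effects, each against its own vehicle within 1 study, had a median of 0.21 over the members, and 41 of 42 were above 0. By limma, 0 members passed this interaction in either direction, when 0.134% of all genes passed higher and 0% lower. At an unadjusted p under 0.05 there were 14 higher and 0 lower members, beside 9.68% of all genes higher and 3.93% lower. The largest difference was that of Rpl12, 0.55 ± 0.128 (SE; limma adjusted p = 0.148). After cyclic loess the median difference was 0.12. The vehicles of that study, corn oil and water, differed by a median of 0.01 over the members.

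**Figure D4:**
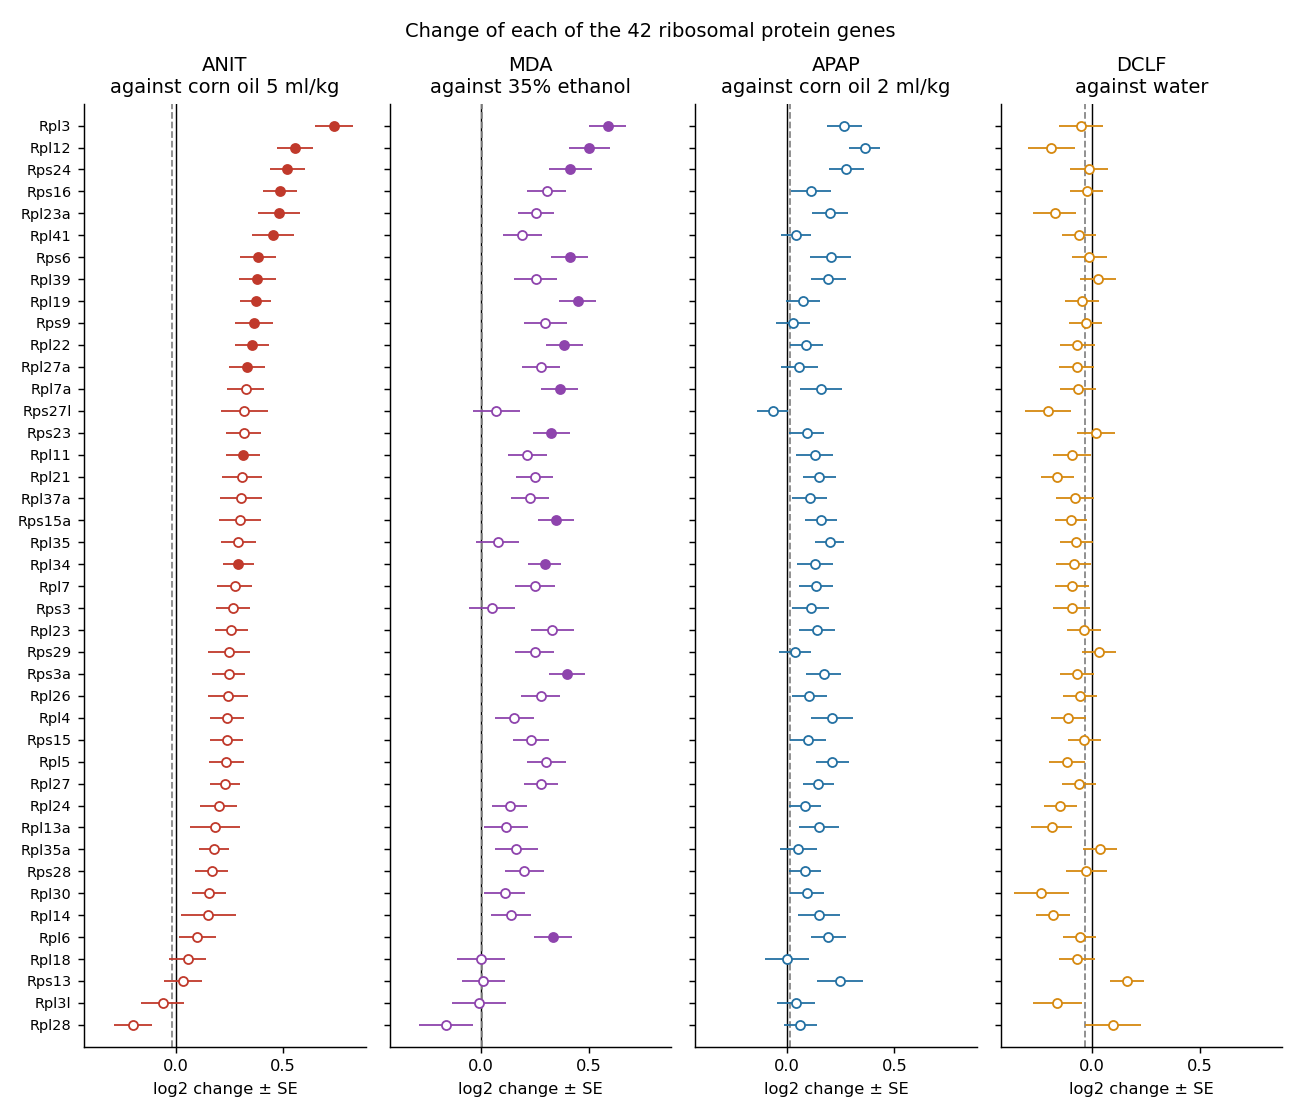
Log2 change ± SE of each of the 42 members for the 4 compounds, in the order of the ANIT changes, with filled points for an adjusted p under 0.05 and dashed lines at the median of all 14217 genes. Filled points number 14 with ANIT, 12 with MDA and 0 with APAP and DCLF, and the DCLF points lie mostly below 0.

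Ribosomal proteins moved against other genes of like brightness with ANIT, MDA and, by less, APAP, but not with DCLF. The brightest 5% of genes held 35 members and 676 other genes. In ANIT livers the other genes had a median log2 change of -0.18, with 30.9% of them above 0, and the 35 members had 0.29, with 35 above 0. In MDA livers the medians were -0.26 for the other genes and 0.28 for the members. With APAP they were -0.04 and 0.13. With DCLF they were -0.06 and -0.07. Quantile normalization and cyclic loess left 31 and 28 members past the adjusted p with ANIT and 26 and 29 with MDA, when 8.11% and 8.38% of all genes passed higher with ANIT and 9.76% and 9.99% with MDA. Under them, the medians of the members were 0.39 and 0.37 with ANIT and 0.37 and 0.41 with MDA, and the other bright genes stayed below 0, at -0.07 and -0.10 with ANIT and -0.14 and -0.09 with MDA.

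**Figure D5:**
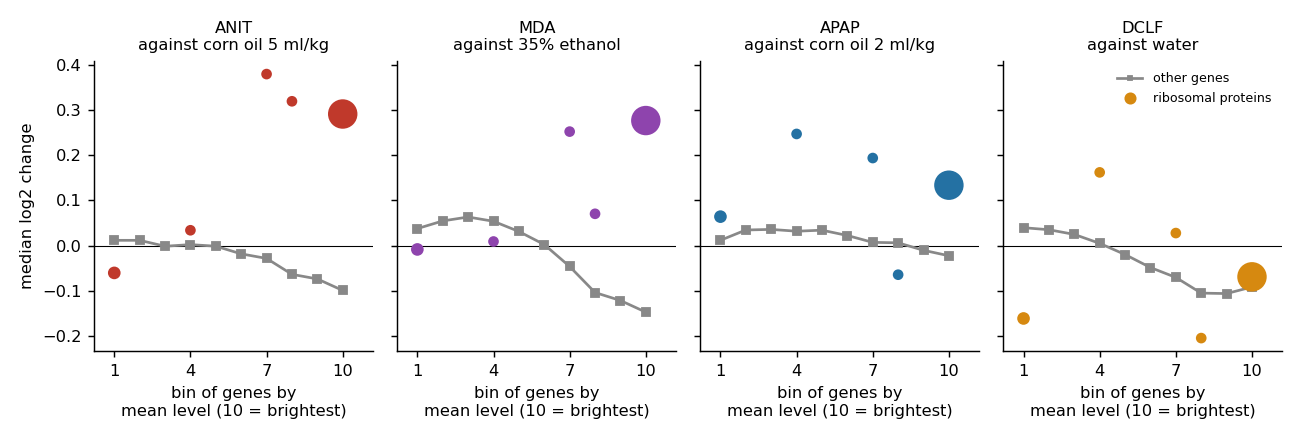
Median log2 change of the ribosomal protein genes (coloured points, area growing with their number) and of the other genes (grey line) in 10 equal bins of the 14217 genes by mean level, for the 4 compounds. In the brightest bin, which holds 36 members, the members lie at 0.29 with ANIT and 0.28 with MDA while the other genes lie at -0.10 and -0.15.

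Probe sets of 1 gene did not always move together. Rpl3, Rpl7, Rpl14 and Rps24 each had a second, dimmer probe set. That of Rpl3 changed by 0.23 ± 0.107 with ANIT (SE; limma adjusted p = 0.244) and by 0.43 ± 0.108 with MDA (adjusted p = 0.035), less than the 0.74 and 0.59 of the brighter one. That of Rps24 changed by 0.44 with ANIT and 0.28 with MDA, close to the brighter one, without passing. Those of Rpl7, at -0.10 and -0.22, and of Rpl14, at 0.01 and -0.06, did not follow the brighter ones, which had 0.28 and 0.25 for Rpl7 and 0.15 and 0.14 for Rpl14. With APAP the dimmer probe sets of Rpl3, Rpl7, Rpl14 and Rps24 changed by 0.01, 0.09, 0.15 and 0.55. The brighter ones changed by 0.27, 0.14, 0.15 and 0.28, and none of these passed. The genes of many ribosomal proteins have processed pseudogenes, and 25 further ribosomal proteins, among them Rpl32, Rps14, Rps18 and Rps19, were measured here only by probe sets annotated to several genes. With these added, 28 of 67 members passed with ANIT and 19 of 67 with MDA, beside the 6.01% and 8.29% of all genes that passed higher.

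Other parts of the ribosome and of its supply moved less evenly. Rplp0, the large subunit stalk protein that the symbol rule leaves out, had log2 changes of 0.50 with ANIT (limma adjusted p = 0.00803) and 0.37 with MDA (adjusted p = 0.0758). Rpsa of the small subunit had 0.39 and 0.19, and Rack1, a signalling scaffold on the small subunit, 0.44 and 0.36. All 3 passed with ANIT and none with MDA. Rpl7l1, a paralog of Rpl7 that the rule also leaves out, had 0.13 with ANIT and -0.29 with MDA and passed in neither (adjusted p = 0.572 and 0.0822 by limma). The 73 mitochondrial ribosomal proteins, which serve the organelle's own ribosome, had medians of -0.07 with ANIT and -0.17 with MDA, where 1 and 0 passed higher and 3 and 5 lower. The shares that passed lower were no larger than the 6.75% and 8.55% of all genes. Of 57 measured genes of ribosome assembly (RNA polymerase I and nucleolar processing and export factors), 1 passed higher and 2 lower with ANIT, and 0 higher and 4 lower with MDA, again shares below those of all genes. Nhp2, a protein of the particles that modify ribosomal RNA, rose by 0.55 with ANIT. The RNA polymerase I subunit Polr1b fell by 0.51 and 0.71 on the log2 scale, and the assembly factor Rrs1 fell by 1.07 with MDA. Of 42 translation factors and other mRNAs with a pyrimidine start, 2 passed higher and 0 lower with ANIT, and 2 higher and 1 lower with MDA. The shares that passed higher were below the 6.01% and 8.29% of all genes. Eef1g, a subunit of elongation factor 1, rose by 0.56 with ANIT, whereas the delivery factor Eef1a1 had log2 changes of 0.01 and 0.19 and the translocase Eef2 of 0.02 and 0.19, none of which passed.

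Among 23 growth regulators, Myc, a transcription factor that drives ribosome production, rose by 1.20 with ANIT and 0.86 with MDA (limma adjusted p = 0.0169 and 0.0479). Rps6kb1, the S6 kinase, fell by 0.47 and 0.70 on the log2 scale. In all, 2 of the 23 passed higher and 3 lower with ANIT, and 2 higher and 2 lower with MDA. Besides Myc, the gene that passed higher with ANIT was Mxd1, at 0.52 (limma adjusted p = 0.0325). Of all genes, 6.01% passed higher and 6.75% lower with ANIT, and 8.29% higher and 8.55% lower with MDA. With APAP, Ddit4, an inhibitor of TOR, rose by 1.13 (adjusted p = 0.0263), the only one of these genes to pass there, and Myc had a log2 change of 1.06 that did not pass (adjusted p = 0.335). With DCLF none of the 23 passed. The called counts of the following lists stand beside 3.84% of all genes called higher and 3.38% lower with ANIT. With MDA, 4.9% of all genes were called higher and 4.23% lower. Of 28 measured cell cycle genes, 22 were called higher with ANIT and 8 with MDA, led by Cdkn3 (3.21), Ccna2 (3.19) and Mki67 (3.15) with ANIT and by Mki67 (1.93) and Ccna2 (1.72) with MDA, and none with APAP or DCLF. Of 14 p53 targets, 4 were called higher with ANIT and 3 with MDA, led by Ephx1 at 1.07 and 1.84, a gene that xenobiotic receptors also induce, and none with APAP or DCLF.

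Markers of other liver cells moved in the same livers as the ribosomal proteins. The mean level of 11 cholangiocyte markers was 8.38 to 8.50 in the corn oil rats and 8.90 to 9.36 in the ANIT rats, with 3 of 11 called higher, and 8.58 to 8.63 in the ethanol rats and 9.06 to 9.36 in the MDA rats, with 4 called higher. Epcam, an epithelial surface protein of bile ducts, rose by 2.16 and 1.10. With ANIT, Krt19 and Krt7 had log2 changes of 0.86 and 0.88 that did not pass (limma adjusted p = 0.161 and 0.0691). Spp1 and Muc1 lay below 0 with ANIT, at -0.01 and -0.16, and the lowest of the 11 with MDA was at 0.16. The 15 stellate cell and fibroblast markers went from 9.86 to 10 up to 10.29 to 10.74 with ANIT (6 called higher, 1 lower) and from 9.47 to 9.88 up to 10.27 to 10.59 with MDA (8 higher, 2 lower). The 11 neutrophil markers went from 8.08 to 8.26 up to 8.72 to 8.80 with ANIT (1 higher) and from 8.10 to 8.28 up to 8.88 to 8.97 with MDA (3 higher). Lcn2, a secreted protein that hepatocytes also make in inflammation, rose by 5.36 with ANIT and 3.62 with MDA, and the median log2 changes of the 11 were 0.05 and 0.36. Monocyte and macrophage markers, 18 in number, overlapped with ANIT (10.87 to 11.06 and 10.97 to 11.33; 3 higher, 1 lower) and did not with MDA (10.54 to 10.77 and 11.54 to 11.72; 15 higher). The 16 lymphocyte markers were 8.69 to 8.89 and 8.55 to 8.61 with ANIT (1 lower) and 8.68 to 8.77 and 9.03 to 9.24 with MDA (5 higher).

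Endothelial markers, 9 in number, were 10.90 to 10.94 and 10.63 to 10.70 with ANIT (2 lower), and 10.29 to 10.55 and 10.49 to 10.59 with MDA (none called). The mean of the 6 erythroid markers was lower with both (9.36 to 9.47 and 8.71 to 9.03 with ANIT, 9.23 to 9.64 and 8.93 to 9.17 with MDA; the 2 called lower were Alas2 and Hbb in each, and Epb42 had a log2 change of 0.11 with ANIT). The 15 hepatocyte markers were 14.55 to 14.57 with ethanol and 14.15 to 14.29 with MDA (4 called lower), and with ANIT their means of 13.91 to 14.58 and 13.90 to 14.56 were lowest in the 3 samples without values over 15 (1 called higher). With APAP and DCLF no marker was called in these lists except the erythroid marker Hbb, which was lower with APAP, where 0.0844% of all genes were called lower. RMA has no zero level, so no marker can be said to be absent. The signal difference between the 3′ and 5′ probe sets of GAPDH, a measure of RNA integrity, was 0.743 to 0.831 with corn oil and 0.629 to 0.706 with ANIT, and 0.817 to 0.911 with ethanol and 0.776 to 0.958 with MDA. That of beta-actin was 0.867 to 0.972 with corn oil and 0.762 to 0.911 with ANIT, and 0.933 to 1.05 with ethanol and 0.989 to 1.24 with MDA, so only GAPDH with ANIT kept the groups apart. The part of cell composition and RNA integrity in the change of the ribosomal proteins was not tested.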

How the data were processed

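Per the labels, the authors normalized the arrays by RMA, and the deposited values are log2 levels, used here as they stand. RMA sets all arrays to a like distribution, so the changes are relative to other genes. The methods name Array Studio for this step. The deposited arrays still differed in the upper range. Their 99th percentiles ran from 13.13 in MDA replicate 1 to 13.33 in 35% ethanol replicate 2. The 57 Affymetrix control probe sets were left out, which left 31042. Of these, 20826 were annotated to 1 gene (14217 genes), 436 to several and 9780 were unnamed here. Symbols were updated through a RefSeq table of the GRCr8 assembly, which held 20758 of the 20826. The updated symbols named the genes, grouped probe sets into genes and matched members to promoters. The member rule itself read the symbols as annotated.

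Each compound was tested against its own vehicle with limma 3.58.1 (lmFit and eBayes, only the groups compared, R 4.3.3), with Benjamini-Hochberg adjustment over all probe sets, and tested on simulated data first. A member passed at an adjusted p under 0.05, and was called if its fold change was also over 1.5. The text names called members, and the 6 highest and 6 lowest with ANIT and with MDA. With APAP it names the 6 highest and the lowest, and with DCLF the highest and the lowest. It also names a set of well-known members, and others that passed, chosen after their values were seen. The second probe sets and the genes of the other lists were named for their calls or roles. The members and lists were chosen with earlier results of these data known. Alternatives were other normalizations, the methods' t-test, other fits, filters, probe sets and members, and each rat left out.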

Additional observations from a re-analysis of the deposited data

How the results depend on the processing

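No paired analysis was possible because every sample was a different rat and replicate numbers only follow the order of deposit. In the ANIT comparison, the 14 members past the adjusted p became 31 after quantile normalization, 28 after cyclic loess, 31 with all 23 samples in 1 fit, 28 with several-gene probe sets and 1 with the methods' t-test after Benjamini-Hochberg adjustment. Without the 3 samples that held no value over 15, 2 passed, but this set 1 ANIT rat against 2 vehicle rats, and the lone rat was assumed to vary like those. Over all genes, the share past the adjusted p and higher went from 6.01% to 8.11%, 8.38% and 8.82% under the first 3 with ANIT, and from 8.29% to 9.76%, 9.99% and 11% with MDA. The 1 called member became 5 after quantile normalization, 3 after cyclic loess, 2 with several-gene probe sets, and 0 with that t-test or with the mean of a gene's probe sets. The median of 0.28 became 0.39 and 0.37 under quantile normalization and cyclic loess. In the MDA comparison, the 12 members became 26, 29, 25, 19 and, with the t-test, 2, and the 1 called member became 2 after quantile normalization, 3 after cyclic loess, and 0 after median centring or with the mean of a gene's probe sets. The MDA median became 0.37 and 0.41. The causes were not tested. Leaving out each rat gave 4 to 13 (ANIT) and 1 to 8 (MDA) members past the adjusted p and 1 to 2 and 0 to 1 called members. After cyclic loess the DCLF median became 0.045 and that of APAP minus DCLF 0.12. Scaling moved the median of all genes by at most 0.05. For APAP, DCLF and both interactions the counts stayed at 0 under every alternative. The several-gene probe sets, the set without Rpl3l and Rps27l, and the set without those 3 samples were chosen after seeing the data.

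Signs turned in the members that follow. Some lay near 0, but the main ANIT changes of Rpl13a, Rpl14 and Rpl6 were 0.18, 0.15 and 0.10. Without those 3 samples, the ANIT change was -0.018 for Rpl13a, -0.017 for Rpl14, -0.090 for Rpl18, 0.050 for Rpl3l, -0.059 for Rpl6 and -0.0036 for Rps13. The MDA change of Rps13 became -0.0002 after quantile normalization and -0.0089 after cyclic loess, that of Rpl18 became -0.0075 after median centring, and the APAP change of Rpl18 -0.011. With DCLF, Rpl22, Rpl3 and Rps6 became 0.0077, 0.024 and 0.028 after quantile normalization, Rps6 became 0.0036 after median centring, and Rpl11, Rpl19, Rpl22, Rpl3 and Rps6 became 0.022, 0.065, 0.048, 0.064 and 0.098 after cyclic loess. Leaving out each rat, the ranges with ANIT were -0.0017 to 0.12 for Rpl18, -0.14 to 0.017 for Rpl3l and -0.024 to 0.11 for Rps13. With MDA they were -0.067 to 0.11 for Rpl18, -0.11 to 0.090 for Rpl3l, -0.046 to 0.073 for Rps13 and -0.028 to 0.12 for Rps27l. With APAP they were -0.074 to 0.10 for Rpl18, -0.0091 to 0.13 for Rpl3l and -0.017 to 0.076 for Rps9. With DCLF they were -0.12 to 0.025 for Rpl3, -0.013 to 0.068 for Rpl39, -0.033 to 0.063 for Rps23, -0.013 to 0.075 for Rps29 and -0.046 to 0.021 for Rps6.
With 2 or 3 rats a group, the number of arrays limits the precision, and most members changed by less than the fold limit.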

Other observations

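With APAP, the 57 measured genes of ribosome assembly had a median log2 change of 0.19, the 42 translation factors and related mRNAs 0.10 and the 73 mitochondrial ribosomal proteins 0.04, beside 0.02 over all genes. With DCLF the same lists had -0.05, -0.13 and -0.16, beside -0.03 over all genes. The lists had median levels of 10.53, 11.80 and 11.34. In the 4 brightest of 10 equal bins of genes by level, from 10.23 upwards, the median changes of the genes other than ribosomal proteins were 0.01, 0.01, -0.01 and -0.02 with APAP and -0.07, -0.11, -0.11 and -0.09 with DCLF. The difference between the compounds was not tested for these lists. By limma, no gene of these lists passed the adjusted p in either comparison.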
